A study of Mus musculus with 32 samples.

Results

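The effect of dexamethasone on LPS-treated macrophages was compared between libraries labelled Acod1 KO and Acod1 WT. For every gene the comparison was a difference of differences, the change that dexamethasone made to LPS-treated KO cells minus the change that it made to LPS-treated WT cells. The 16 libraries with LPS, of 32 in the series, enter it directly, 4 in each of 4 groups: KO with dexamethasone and LPS, KO with LPS, WT with dexamethasone and LPS, and WT with LPS. The other 16, without LPS, gave the same difference for cells that had no LPS. All were bone marrow-derived macrophages on a C57BL/6J background, grown from femur and tibia marrow of mice aged 8 to 12 weeks in medium with L929 supernatant as the source of M-CSF. Dexamethasone was given at 100 nM and LPS at 100 ng, with no volume in the labels, and treatment lasted 24 h. KO stands for Irg1-/- (Irg1 is another name of Acod1). The labels name both commercial C57BL/6J mice and Irg1+/+ mice as sources of marrow without saying which gave the WT libraries. Which part of Acod1 is deleted is not stated. Nor is it stated that the 4 replicates of a group are different mice, and the p values then cover the spread among libraries only, some of it perhaps technical.

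Dexamethasone is a synthetic agonist of the glucocorticoid receptor, a transcription factor that moves to the nucleus on binding hormone, activates genes such as Fkbp5 and represses genes driven by NF-kappaB and AP-1. LPS, a cell wall component of Gram-negative bacteria, is sensed by TLR4 and induces cytokines, chemokines and interferon-stimulated genes, while metabolism shifts to glycolysis. Acod1 encodes a mitochondrial decarboxylase that turns cis-aconitate, drawn from the TCA cycle, into itaconate. It is itself an LPS-induced gene, and itaconate inhibits succinate dehydrogenase and activates NRF2.

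The 16 libraries held 18232013 to 24032980 read pairs assigned to genes, and 14427 of 56953 genes had enough counts to be tested. Levels are given as CPM, read pair counts made comparable over library sizes, and effects as log2 fold changes ± SE with n = 4 libraries per group. A gene was called at an edgeR Benjamini-Hochberg adjusted p under 0.05. All 8 KO libraries with LPS were sequenced in lane 2 and all 8 WT libraries with LPS in lane 3, per the file headers. Each dexamethasone effect under LPS was thus measured within 1 lane. A level in KO with LPS set against a level in WT with LPS cannot be told apart from a difference between lanes. The libraries without LPS were in lane 3, with 2 exceptions in KO. Library 4 with dexamethasone alone was in lane 2, and control library 1 was merged, with no lane in its header. WT library 3 with LPS stood apart from its group, with a chi-square per degree of freedom of 16.7 to 17.4 against its 3 replicates, where all other replicate pairs reached 5.73 at most. Without it 6401 genes had a called difference, against 6552 with it. Macrophage markers dominated in each of the 16 libraries, with sums of 23760 to 24440 CPM in KO with both agents, 20010 to 21240 CPM in KO with LPS, 31500 to 32430 CPM in WT with both and 18890 to 20630 CPM in WT with LPS, most of it from Lyz2 with dexamethasone. Neutrophil markers, 4 of 12 of them past the filter and Retnlg at 0, summed to 100.2 to 110.9, 125.1 to 138.3, 61.4 to 66.2 and 122.1 to 136.1 CPM in the same order of groups. Dendritic cell markers, 4 of 7 past the filter and led by Ccr7 in the 3 groups other than WT with both, summed to 8.80 to 12.5, 13.3 to 15.7, 1.43 to 2.17 and 11.4 to 15.8 CPM. None of 9 T and NK cell markers passed the filter (Cd3e, Cd2, Nkg7 and Gzma were at 0), B cell markers reached at most 3.6 CPM with Igkc at 0, fibroblast markers at most 3.64 CPM, and erythroid and mast cell markers at most 0.27 CPM. The part of these cell types in the results was not tested, and in bulk RNA fewer cells of a type cannot be told apart from less RNA per cell.

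Acod1 transcript was abundant in libraries of either label. It measured 4119, 4034, 3908 and 3670 CPM in the KO libraries with dexamethasone and LPS, against 4898, 4914, 4979 and 5187 CPM in the KO libraries with LPS. In the WT libraries it measured 2748, 2783, 2708 and 2712 CPM with both agents, against 6507, 6675, 6125 and 6624 CPM with LPS. No groups overlapped. Dexamethasone lowered it in KO by -0.34 ± 0.04 and in WT by -1.24 ± 0.04 on the log2 scale, a difference of 0.90 ± 0.06 (edgeR, adjusted p = 1.2e-18). The deposited table has the gene on the plus strand of chromosome 14, from 103284413 to 103294009. This and the gene positions below follow the annotation of that table, which is of a later build than the promoters shown. Counts pooled over all exons do not check the KO label, since a transcript that lacks part of its sequence would still be counted, and KO and WT below mean the labels of the libraries. Nr3c1, the gene of the glucocorticoid receptor, measured 161.8, 162.4, 162.7 and 165.1 CPM in KO with both agents, against 132.1, 129.2, 131.5 and 119.1 CPM in KO with LPS. In WT it measured 211.7, 207.1, 210.3 and 206.8 CPM with both, against 142.4, 138.7, 108.5 and 132.9 CPM with LPS. The libraries with both agents lay above those with LPS, highest in WT, and the groups with LPS overlapped. The receptor gene was raised by dexamethasone in either label, by 0.35 ± 0.05 in KO and 0.68 ± 0.04 in WT, and the difference was -0.33 ± 0.06 (edgeR, adjusted p = 2.15e-05).

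Most dexamethasone effects under LPS were smaller in KO than in WT, in both directions. Of the 14427 genes tested, 6552 (45.4%) had a called difference, 3446 (23.9%) with a KO effect above the WT effect and 3106 (21.5%) with one below it. Of the 6552, 6480 (98.9%) had a called WT effect and a KO effect nearer to 0, here called smaller: 3412 of these were lowered in WT and 3068 raised. Their median WT effect had a size of 0.75 and their median difference a size of 0.50, and in 1519 of them the difference was 2-fold or more. By contrast 21 genes had a larger effect in KO and 4 turned, with called effects of opposite sign. The remaining 47 called differences met none of these definitions. In 1927 genes with a called effect in either genotype the effect held, in the sense that the difference was not called and its 95% interval lay within 0.5 of 0 on the log2 scale. That margin is wider than most effects in this class, of which 729 were called in KO, so it does not show that an effect remained in KO. For 1713 genes with a called effect the interval was too wide to say. The counts of larger and turned genes moved with the processing, to 34 and 12 with RLE size factors and to 34 and 11 with DESeq2, and the turned count lay between 1 and 7 when 1 library was left out.

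Dexamethasone called 5499 genes in KO (38.1%), 2499 lowered (17.3%) and 3000 raised (20.8%), and 9978 genes in WT (69.2%), 4981 lowered (34.5%) and 4997 raised (34.6%). These shares are the background of the counts of list members below, and no list was tested against them. The direction was mostly kept. Of 3204 genes called in WT with a 2-fold or larger effect, 3038 (94.8%) had an effect of the same sign in KO, and in 586 it was 2-fold or larger there too. These 586 were unevenly spread, 56 of the 1732 genes lowered 2-fold or more in WT and 530 of the 1472 raised. Across the 14427 genes, which are not independent replicates, the slope of KO on WT effects was 0.352, with Pearson's r at 0.717 and Spearman's rho at 0.779.

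**Figure D1:**
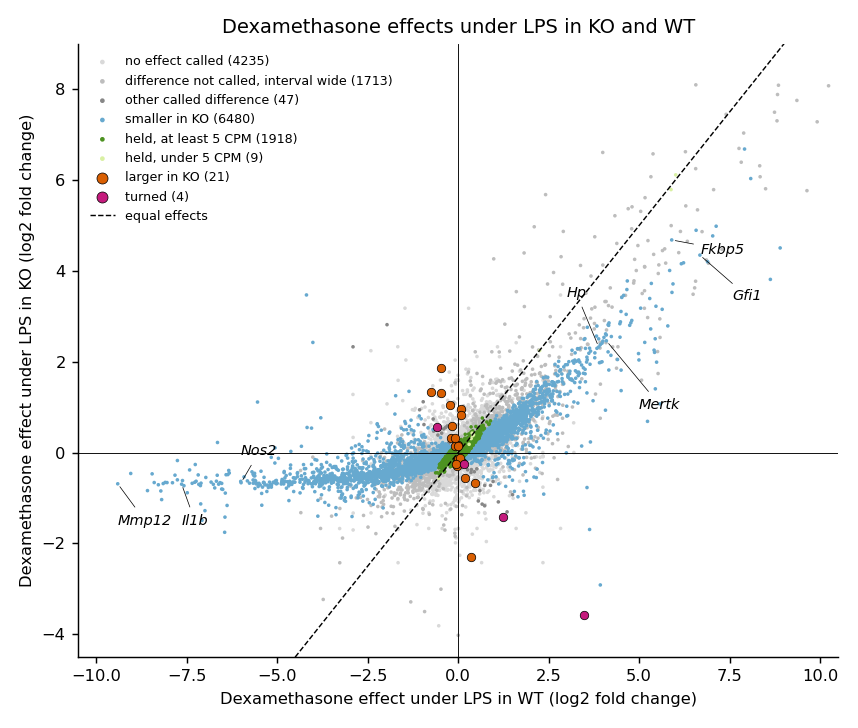
Dexamethasone effect under LPS in KO (vertical axis) against that in WT (horizontal axis), both as log2 fold changes, 1 point per tested gene, coloured by class, with the line of equal effects dashed; 4 genes lie outside the axes. Strongly lowered genes run along a flat band just below 0 in KO, while raised genes rise with the WT effect below the dashed line.

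The KO cells with both agents stood at nearly the same relative point for lowered and raised genes when levels were read on a linear scale. That point was expressed as a position, 0% at the mean level of KO with LPS and 100% at the mean level of WT with dexamethasone and LPS. It was given for the 1727 genes with a called WT effect of 2-fold or more and at least 5 CPM at an end. The 2 ends also had to lie more than 0.5 log2 units apart in the direction of the WT effect. This last rule uses the levels that define the position and leaves out genes whose ends lie close or reversed. The position was chosen after the data had been seen and is given as a description. The median position was 37.1% over all 1727 genes, with the middle 50% of genes between 33.5% and 40.7%, and it was 37.5% over the 900 lowered and 36.3% over the 827 raised genes. Single genes ran from -1.32% to 129.9%. Across 8 classes of WT effect, from lowered 32-fold or more to raised 32-fold or more, the median moved only between 36.1% and 37.98%. For 1568 of the 1727 genes (90.8%) each of the 4 KO libraries with both agents lay between all KO libraries with LPS and all WT libraries with both. Taken 1 at a time, the 4 KO libraries with both agents had median positions of 37.8%, 33.7%, 35.4% and 41.4%. The KO libraries with LPS lay between -2.74% and 3.16%, the WT libraries with both agents between 99.4% and 100.6%, and the WT libraries with LPS between -7.31% and -0.92%.

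A common linear position gives unequal log2 effects at the 2 ends of the scale. The 47 genes lowered 32-fold or more in WT had a median KO effect of -0.68 against a median WT effect of -5.67, and the middle 50% of KO effects lay between -0.69 and -0.64. The 37 genes raised 32-fold or more had a median KO effect of 4.45 against 6.28 in WT. As a share of the WT log2 effect, the KO effect had a median of 11.6% in the first set and 69.8% in the second. When mean levels in KO with both agents were fitted as a weighted sum of the mean levels of the other 7 groups, by least squares with weights not below 0, KO with LPS got a weight of 62.8% and WT with both agents 36.4%, 99.2% together, and no other group got more than 0.243%. Of 9519 genes with at least 5 CPM, 9422 (99%) came within 0.25 log2 units of the fitted level, compared with 71.4% that lay as near to KO with LPS and 53% as near to WT with both. In bulk RNA a partial change in every cell, a full change in a share of the cells and a mixture of RNA from different cultures cannot be told apart.

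**Figure D2:**
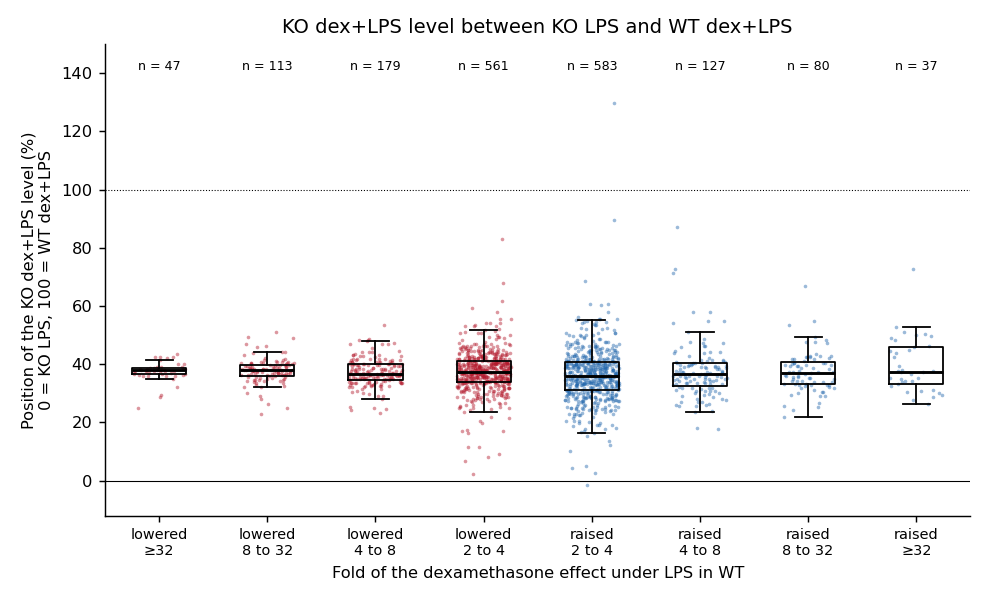
Position of the level in KO with dexamethasone and LPS (vertical axis, percent; 0 is KO with LPS, 100 is WT with both agents) by the fold of the WT effect (horizontal axis), 1 point per gene, with boxes for the median and middle 50% and whiskers to the last gene within 1.5 box lengths. The 8 medians lie between 36.1% and 37.98%, for lowered and for raised genes.

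A few genes marked the genotype in each of the other treatments, and their mean position lay below the common one. They were found after the data had been seen as the 4 genes that differed 2-fold or more between KO and WT in the same direction in control, dexamethasone and LPS libraries. A minimum of 1 CPM and an offset of 0.1 CPM were used. Capn11, a calpain gene, averaged 0.0137 ± 0.0274 CPM in KO with both agents and 0.0391 ± 0.0781 CPM in KO with LPS, against 0.837 ± 0.186 CPM in WT with both and 0.510 ± 0.186 CPM in WT with LPS (SD, n = 4). Its position was -3.18%, while Gm42031 stood at 12.7%, the X-linked 3830403N18Rik at 13.1% and the peptide transporter gene Slc15a2 at 20.1%. Over the 4 KO libraries with both agents Slc15a2 ranged from 3.79% to 36.2%, which reaches the common position, and Gm42031 from 8.28% to 17.6%. Gm42031 averaged 7.34 ± 0.676 CPM in KO with both agents and 5.17 ± 1.28 CPM in KO with LPS, against 22.2 ± 1.497 CPM in WT with both and 12.5 ± 0.895 CPM in WT with LPS. With both agents, the KO level of each of the 4 genes thus lay nearer to that of KO with LPS than the common position. All but Gm42031 averaged under 3 CPM in the 4 groups with LPS, so their positions are imprecise. In WT the means with both agents and with LPS were less than 2-fold apart, so none of the 4 met the rule of the common position. They were also chosen partly by the KO level with LPS, which is the 0% end. Their positions are thus not directly comparable with the common one.

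Cytokine genes were lowered far less by dexamethasone in KO. Of 19 tested, 13 were lowered and 2 raised in KO, 15 lowered and 2 raised in WT, and the difference was higher in KO for 14 and lower for 1. The median effect was -0.51 in KO and -1.36 in WT, beside -0.002 in KO and 0.0071 in WT over all genes. Il1b, which encodes interleukin-1 beta (chromosome 2 from 129206490 to 129213059, minus strand), measured 4118, 4639, 4814 and 3875 CPM in KO with both agents, against 7614, 6836, 7362 and 6477 CPM in KO with LPS. WT libraries had 47.8, 41.5, 44.1 and 35.9 CPM with both, against 8643, 8027, 9339 and 7865 CPM with LPS. No groups overlapped within a genotype, and the WT libraries with both agents lay far below the other 12. The effects were -0.70 ± 0.06 in KO and -7.65 ± 0.08 in WT, a difference of 6.95 ± 0.09 (edgeR, adjusted p = 8.50e-47). Inhba, an activin subunit, had a difference of 7.47 ± 0.11, with effects of -0.68 in KO and -8.16 in WT.

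Il6 was less expressed and showed the same order. It measured 31.4, 32.3, 30.3 and 25.1 CPM in KO with both agents, against 51.6, 41.3, 44.5 and 43.5 CPM in KO with LPS. The WT values were 6.87, 6.28, 7.45 and 5.53 CPM with both, against 64.4, 71.0, 78.8 and 74.7 CPM with LPS. The KO libraries with both agents lay below those with LPS by a narrow gap, and the WT libraries by a wide one. The difference was 2.87 ± 0.12 (edgeR, adjusted p = 3.83e-23). Il12b, a subunit of interleukin-12 and interleukin-23, gave 2.87 ± 0.17, Il1a 4.17 ± 0.09, and Il1rn, the interleukin-1 receptor antagonist, 4.41 ± 0.09. Tnf stood at 198.9, 196.2, 174.7 and 168.7 CPM in KO with both agents, against 220.3, 236.0, 222.0 and 249.5 CPM in KO with LPS. In WT it stood at 148.5, 160.7, 127.9 and 128.6 CPM with both, against 241.3, 265.5, 272.5 and 289.6 CPM with LPS. No groups overlapped within a genotype, although the KO and WT libraries with LPS did. Here the WT effect itself was modest, -0.92 ± 0.06, and the KO effect -0.33 ± 0.06, a difference of 0.59 ± 0.09 (edgeR, adjusted p = 1.11e-07). Il10, whose product restrains inflammation, was barely detected and its difference of -1.02 ± 0.69 was not called (edgeR, adjusted p = 0.246), although it reached -2.08 (adjusted p = 0.0135) without KO library 1 with both agents.

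Enzymes of inflammatory mediators followed. Of 15 tested, 9 were lowered and 1 raised in KO, 9 lowered and 2 raised in WT, and the difference was higher in KO for 9 and lower for 2, with median effects of -0.22 in KO and -0.91 in WT. Nos2, the inducible nitric oxide synthase (chromosome 11 from 78811613 to 78851080, plus strand), measured 2083, 2318, 2433 and 2076 CPM in KO with both agents, against 3755, 3422, 3697 and 3256 CPM in KO with LPS. Its WT levels were 58.1, 64.1, 52.3 and 65.4 CPM with both, against 4143, 4023, 3838 and 3396 CPM with LPS. The groups did not overlap within a genotype, and the difference was 5.34 ± 0.08 (edgeR, adjusted p = 1.48e-41). Ptgs2, the inducible cyclooxygenase, differed by 5.10 ± 0.10. Arg1, the arginase that competes with Nos2 for arginine, measured 134.3, 158.0, 171.6 and 166.4 CPM in KO with both agents, against 276.3, 224.6, 298.4 and 212.0 CPM in KO with LPS. In WT it had 0 counts in all 4 libraries with both agents, against 398.6, 318.2, 541.0 and 315.5 CPM with LPS. The KO groups did not overlap. Set against 3 counts over the group, it was at least 10620-fold lower in WT, while in KO it was 1.61-fold lower. That floor covers counting error alone.

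Chemokine genes, which draw leukocytes to tissue, had the largest median difference among the lists other than cell type markers, 2.75. Of 24, 14 were lowered and 3 raised in KO, 21 lowered and 3 raised in WT, and the difference was higher in KO for 20 and lower for 2, with median effects of -0.49 in KO and -3.31 in WT. Ccl2, the monocyte attractant (chromosome 11 from 81926397 to 81928279, plus strand), measured 391.4, 454.6, 554.2 and 442.1 CPM in KO with both agents, against 850.8, 690.6, 784.6 and 619.8 CPM in KO with LPS. WT cells had 7.08, 7.06, 5.67 and 6.95 CPM with both, against 1099, 966.9, 1392 and 938.3 CPM with LPS. Every KO library with both agents was thus below every KO library with LPS and far above every WT library with both, and the difference was 6.68 ± 0.17 (edgeR, adjusted p = 3.81e-35). Ccl7 differed by 7.58 ± 0.20, and the neutrophil attractants Cxcl3 and Cxcl2 by 6.07 ± 0.10 and 2.89 ± 0.09.

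Interferon-stimulated genes moved as a block. All 41 were in the smaller class, 39 lowered and 1 raised in KO, 40 lowered and 1 raised in WT, with median effects of -0.35 in KO and -1.64 in WT. Rsad2, the antiviral protein viperin, measured 366.6, 363.4, 393.8 and 371.7 CPM in KO with both agents, against 589.4, 502.5, 629.2 and 550.9 CPM in KO with LPS. The WT libraries gave 48.1, 48.1, 50.3 and 48.9 CPM with both, against 696.9, 631.0, 721.6 and 596.3 CPM with LPS. The groups did not overlap within a genotype, and the WT libraries with both agents were the lowest. Its difference was 3.16 ± 0.09 (edgeR, adjusted p = 5.59e-32). The NF-kappaB subunits, inhibitors and feedback regulators changed less. Of 21, 8 were lowered and 4 raised in KO, 15 lowered and 3 raised in WT, and the median difference was 0.34. Among them Atf3, a stress-induced repressor, differed by 3.07 ± 0.08, Socs1, which restrains cytokine signalling, by 2.39 ± 0.11, and the subunit gene Rela by 0.59 ± 0.05.

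Antigen presentation genes were lowered by dexamethasone in WT and less so in KO. Of 20 genes of MHC class I, peptide loading and the immunoproteasome, 18 were lowered in KO and 19 in WT, and 19 had a difference higher in KO, with medians of -0.22 in KO and -0.81 in WT. Of 11 genes of MHC class II and co-stimulation, 8 were lowered in KO and 9 in WT, with medians of -0.43 in KO and -1.82 in WT, and 7 had a difference higher in KO and 1 lower. The class II chain gene H2-Ab1 measured 321.8, 332.8, 328.3 and 302.2 CPM in KO with both agents, against 437.0, 430.1, 428.4 and 435.1 CPM in KO with LPS. Levels in WT were 105.1, 106.3, 104.2 and 96.1 CPM with both, against 388.4, 383.1, 463.7 and 385.8 CPM with LPS. The groups did not overlap within a genotype, and the difference was 1.55 ± 0.07 (edgeR, adjusted p = 6.48e-25). Tap1, the peptide transporter of class I loading, differed by 1.49 ± 0.05, and Cd86, a co-stimulatory ligand, by 2.23 ± 0.13.

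Matrix proteases held the largest fitted difference among protein-coding genes with at least 5 CPM and more than 3 counts in each group. Of 17 proteases and inhibitors, 13 were lowered and 3 raised in KO, 14 lowered and 3 raised in WT, and the difference was higher in KO for 14 and lower for 2, with medians of -0.60 in KO and -2.68 in WT. Mmp12, macrophage elastase (chromosome 9 from 7344381 to 7369499, plus strand), measured 573.5, 640.8, 679.5 and 637.8 CPM in KO with both agents, against 1091, 928.9, 1155 and 906.1 CPM in KO with LPS. In WT it measured 2.02, 2.77, 2.54 and 2.59 CPM with both, against 1707, 1368, 2207 and 1508 CPM with LPS. The groups did not overlap within a genotype, and the KO libraries with both agents stood far above the WT ones. The difference was 8.72 ± 0.21 (edgeR, adjusted p = 5.98e-36), and Mmp13, a collagenase, followed at 7.39 ± 0.17. The promoter of Mmp12 is shown as that of the gene with this largest difference, from RefSeq on GRCm38.p6 (chr9:7344147-7344446, plus strand, 5′ to 3′), 1 of 2 starts that the table lists, with a glucocorticoid half-site in capitals at bases 261 to 266.
Mmp12: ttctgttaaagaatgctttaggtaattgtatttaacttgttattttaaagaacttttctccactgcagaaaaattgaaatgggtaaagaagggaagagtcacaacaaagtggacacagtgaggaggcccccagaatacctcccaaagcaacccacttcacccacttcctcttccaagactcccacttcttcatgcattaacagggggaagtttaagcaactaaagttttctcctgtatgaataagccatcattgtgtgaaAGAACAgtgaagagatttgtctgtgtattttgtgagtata
The motifs searched, on both strands, were the glucocorticoid half-site AGAACA, found in 19% of 32851 promoters of the same length, and the AP-1 motif TGANTCA, where N is any base, found in 7.81%. The half-site was the single match in the Mmp12 window, and a match is a description of the letters, not a site of binding.

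Glycolysis and HIF1 target genes, which support the metabolic shift of LPS-treated macrophages, were lowered together and less so in KO. Of 18 genes of glucose uptake, glycolysis and lactate export, 15 were lowered in KO and 16 in WT, and 16 had a difference higher in KO, with medians of -0.42 in KO and -1.56 in WT. Of 17 HIF1 target genes outside glycolysis, 16 were lowered in either genotype and 16 had a difference higher in KO, with medians of -0.55 in KO and -2.99 in WT. The glucose transporter gene Slc2a1 measured 703.8, 774.5, 750.8 and 704.6 CPM in KO with both agents, against 1121, 1087, 1133 and 1015 CPM in KO with LPS. WT libraries had 142.9, 147.2, 133.1 and 143.5 CPM with both, against 1314, 1200, 1483 and 1140 CPM with LPS. The groups did not overlap within a genotype, and the difference was 2.61 ± 0.07 (edgeR, adjusted p = 1.04e-34). Vegfa, an angiogenic growth factor, differed by 4.70 ± 0.09, the hypoxia-induced gene Ndrg1 by 4.48 ± 0.09, the mitophagy receptor gene Bnip3 by 3.35 ± 0.07 and the lactate exporter gene Slc16a3 by 2.67 ± 0.06.

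NRF2 targets, genes of antioxidant defence that itaconate is known to induce, were also lowered by dexamethasone under LPS. Of 24, 18 were lowered and 2 raised in KO, 19 lowered and 4 raised in WT, and the difference was higher in KO for 15 and lower for 3. The heme oxygenase gene Hmox1 measured 4432, 4833, 4797 and 4327 CPM in KO with both agents, against 7319, 7078, 7584 and 6756 CPM in KO with LPS. The WT values were 673.3, 654.7, 656.2 and 671.5 CPM with both, against 6101, 5660, 6094 and 5382 CPM with LPS. No groups overlapped, and the WT libraries with both agents were the lowest. Its difference was 2.49 ± 0.05 (edgeR, adjusted p = 3.14e-38). Prdx1, a peroxidase, differed by 2.25 ± 0.05, and Srxn1, which regenerates such peroxidases, by 1.33 ± 0.06. The 8 members with a position had a median of 42.1%. Integrated stress genes such as Atf4 (difference 0.89 ± 0.06) and Trib3 (1.83 ± 0.13) were lowered as well. Of 18 in that list, 10 were lowered and 2 raised in KO, 13 lowered and 5 raised in WT, and the difference was higher in KO for 10 and lower for 5.

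**Figure D3:**
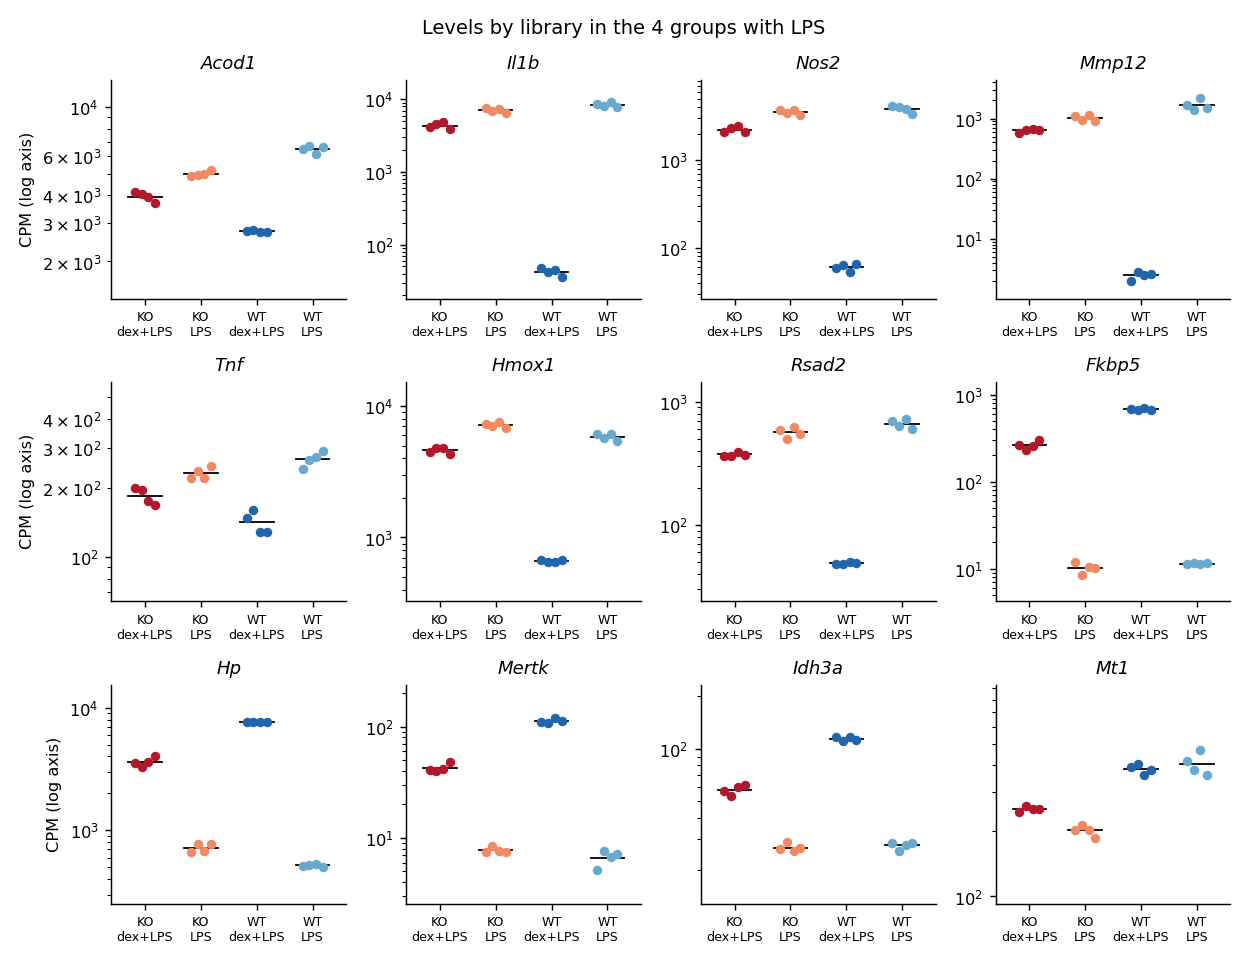
CPM on a log axis (vertical) in each library of KO with dexamethasone and LPS, KO with LPS, WT with both agents and WT with LPS (left to right) for 12 genes, with 1 point per library and a line at the group mean. In Il1b, Nos2, Mmp12, Hmox1 and Rsad2 the WT libraries with both agents lie far below the other 12, and in Fkbp5, Hp, Mertk and Idh3a the KO libraries with both agents lie between those of KO with LPS and WT with both.

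Target genes of the glucocorticoid receptor were mostly raised in KO as well. Of 25 tested, 17 were raised and 4 lowered in KO, 15 raised and 8 lowered in WT, and the difference was higher in KO for 8 and lower for 11. The median effects over members that moved both ways were 1.23 in KO and 1.25 in WT, but the median of the differences gene by gene was -0.56, and 18 of the 25 were in the smaller class. Fkbp5, a receptor co-chaperone and a standard readout of the hormone, which was picked here after its values were seen, measured 264.8, 228.0, 257.2 and 299.2 CPM in KO with both agents, against 11.9, 8.41, 10.3 and 10.2 CPM in KO with LPS. Its WT levels were 686.5, 668.6, 695.0 and 673.2 CPM with both, against 11.2, 11.5, 11.3 and 11.6 CPM with LPS. Every library with dexamethasone lay far above every library without it, and with dexamethasone the KO libraries lay below the WT ones. The effects were 4.68 ± 0.07 in KO and 5.90 ± 0.07 in WT, a difference of -1.22 ± 0.11 (edgeR, adjusted p = 5.27e-13). Glul, which makes glutamine, measured 292.2, 267.5, 302.0 and 321.9 CPM in KO with both agents, against 98.7, 100.7, 106.8 and 102.5 CPM in KO with LPS. WT cells had 585.2, 607.0, 600.3 and 573.6 CPM with both, against 112.8, 109.5, 116.3 and 114.9 CPM with LPS. No groups overlapped, and the KO libraries with both agents lay between those with LPS and the WT libraries with both. Its difference was -0.85 ± 0.05 (edgeR, adjusted p = 5.67e-19). Zbtb16, a transcription factor named outside the naming rules, had 3 counts in KO and 5 counts in WT over the libraries with LPS. It was 313-fold higher with dexamethasone in KO (95% interval 107 to 1521, counting error alone) and 504-fold in WT (216 to 1555). The intervals overlap, and the difference between the genotypes was not called (edgeR, adjusted p = 0.67).

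Acute-phase and antimicrobial proteins rose in either genotype and by less in KO. Of 13, 10 were raised in KO and 10 in WT, 1 lowered in KO and 2 in WT, and the difference was higher in KO for 2 and lower for 9, with medians of 0.58 in KO and 1.53 in WT. Haptoglobin, Hp, which binds free haemoglobin (chromosome 8 from 110301760 to 110305804, minus strand), measured 3569, 3309, 3605 and 4019 CPM in KO with both agents, against 669.9, 773.4, 680.5 and 772.2 CPM in KO with LPS. The WT libraries gave 7615, 7700, 7677 and 7580 CPM with both, against 512.3, 518.3, 536.2 and 504.6 CPM with LPS. No groups overlapped, and the WT libraries with both agents were the highest. The effects were 2.32 ± 0.05 in KO and 3.88 ± 0.05 in WT, a difference of -1.56 ± 0.06 (edgeR, adjusted p = 2.29e-26). Lcn2, an iron-scavenging lipocalin, differed by -1.08 ± 0.06 and the lysozyme gene Lyz2 by -0.95 ± 0.06.

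Scavenger and efferocytosis genes split by direction. Of 20, 11 were raised and 7 lowered in either genotype, and the difference was higher in KO for 7 and lower for 11. Mertk, a receptor for apoptotic cells, measured 40.7, 39.7, 42.0 and 48.2 CPM in KO with both agents, against 7.45, 8.41, 7.55 and 7.47 CPM in KO with LPS. Levels in WT were 109.4, 109.1, 119.5 and 113.6 CPM with both, against 5.11, 7.61, 6.66 and 7.22 CPM with LPS. All libraries with dexamethasone were above all without it, and the difference was -1.63 ± 0.12 (edgeR, adjusted p = 6.28e-16). The scavenger receptor genes Cd36 and Msr1 were lowered instead, with differences of 2.86 ± 0.10 and 1.49 ± 0.06. Of 13 alternative-activation genes, 2 were raised and 4 lowered in KO, 3 raised and 7 lowered in WT, and the difference was higher in KO for 7 and lower for 1. The median effects were 0.16 in KO and -0.16 in WT, but the median of the differences gene by gene was 1.08, and no member turned. In this list the beta-glucan receptor gene Clec7a differed by 5.203 ± 0.24 and the chemokine gene Ccl22 by 4.90 ± 0.23. Of 19 Toll-like receptor and co-receptor genes, 3 were raised and 7 lowered in KO, 8 raised and 10 lowered in WT, with Tlr2 raised (difference -0.76 ± 0.07) and Tlr4 lowered (0.51 ± 0.06). The 16 macrophage identity genes split evenly in WT, 7 raised and 7 lowered, against 4 raised and 7 lowered in KO. Over all genes tested 38.1% were called in KO and 69.2% in WT, and 45.4% had a called difference.

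Mitochondrial and biosynthetic genes were raised by dexamethasone under LPS, by less in KO. Of 23 TCA cycle genes 19 were raised in KO and 22 in WT, with medians of 0.30 in KO and 0.58 in WT, and 20 had a difference lower in KO. Idh3a, a subunit of isocitrate dehydrogenase, measured 57.3, 53.2, 59.8 and 61.7 CPM in KO with both agents, against 26.3, 29.1, 25.5 and 26.8 CPM in KO with LPS. In WT it measured 116.8, 111.1, 116.5 and 111.4 CPM with both, against 28.6, 25.8, 27.8 and 28.8 CPM with LPS. The groups with LPS overlapped between genotypes, while those with both agents lay above them and apart from each other. Its difference was -0.93 ± 0.08 (edgeR, adjusted p = 7.34e-15). Sdha, the catalytic subunit of the succinate dehydrogenase that itaconate inhibits, differed by -0.64 ± 0.04, and the mitochondrial malic enzyme gene Me2 was lowered, with a difference of 1.05 ± 0.07. Of 13 genes of pyruvate entry, 8 were raised in either genotype, 3 lowered in KO and 4 in WT, and the kinase gene Pdk1, which shuts pyruvate dehydrogenase down, was among the lowered, with a difference of 1.58 ± 0.06.

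Of 62 nuclear-encoded respiratory chain and ATP synthase genes, 56 were raised in KO and 58 in WT, with medians of 0.34 in KO and 0.67 in WT. The difference was lower in KO for 47 and higher for 1, and 12 held. Of 11 mitochondrially encoded genes 6 were raised in KO and 10 in WT. The difference was called for 5 of the 11, all lower in KO, a share near the 45.4% of all genes tested, and 2 held. The gene with the smallest adjusted p of the difference was mt-Nd1, at -0.73 ± 0.08. Reads from the mitochondrial genome made up 0.322% to 0.367% of counts in KO with both agents, 0.261% to 0.329% in KO with LPS, 0.539% to 0.631% in WT with both and 0.310% to 0.359% in WT with LPS, and the part of this share in the result was not tested.

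The 76 cytosolic ribosomal protein genes formed the longest list. In KO 70 were raised and none lowered, in WT 72 were raised and 1 lowered, and 63 had a difference lower in KO, with medians of 0.29 in KO and 0.59 in WT. Rpl3, of the large subunit, measured 323.7, 297.8, 319.2 and 340.7 CPM in KO with both agents, against 142.9, 147.5, 147.8 and 157.3 CPM in KO with LPS. WT libraries had 601.1, 592.7, 602.7 and 563.0 CPM with both, against 132.9, 142.2, 143.8 and 148.8 CPM with LPS. The libraries with both agents lay above all with LPS, the WT ones highest. Its difference of -0.95 ± 0.05 (edgeR, adjusted p = 1.12e-21) is uncertain as far as reads were shared with processed pseudogenes, which many ribosomal protein genes have. Endoplasmic reticulum chaperone genes were raised in 15 of 17 in KO and 16 of 17 in WT, and cell cycle genes in 25 of 28 in KO and 26 of 28 in WT, with cell cycle medians of 1.31 in KO and 2.26 in WT. The replication topoisomerase gene Top2a differed by -1.46 ± 0.17.

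Cholesterol synthesis genes were raised in 20 of 23 in KO and 21 of 23 in WT, and 20 had a difference lower in KO, with medians of 0.51 in KO and 1.05 in WT. Dhcr7, which makes the last step to cholesterol, measured 30.4, 29.7, 26.8 and 27.4 CPM in KO with both agents, against 16.04, 20.5, 16.9 and 19.6 CPM in KO with LPS. The WT values were 55.5, 53.7, 53.7 and 53.7 CPM with both, against 16.4, 18.3, 16.1 and 17.9 CPM with LPS. The groups did not overlap within a genotype, and the difference was -1.01 ± 0.09 (edgeR, adjusted p = 1.48e-13). The 12 members with a position had a median of 28.01%, between 21.4% and 40.7%, beside 37.1% over all genes with a position. Of 11 LXR target genes 3 were raised and 5 lowered in KO, 5 raised and 5 lowered in WT, beside 38.1% of all genes called in KO and 69.2% in WT. The cholesterol exporter gene Abca1 was lowered (difference 1.85 ± 0.07) and Fasn raised (-0.94 ± 0.10).

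**Figure D4:**
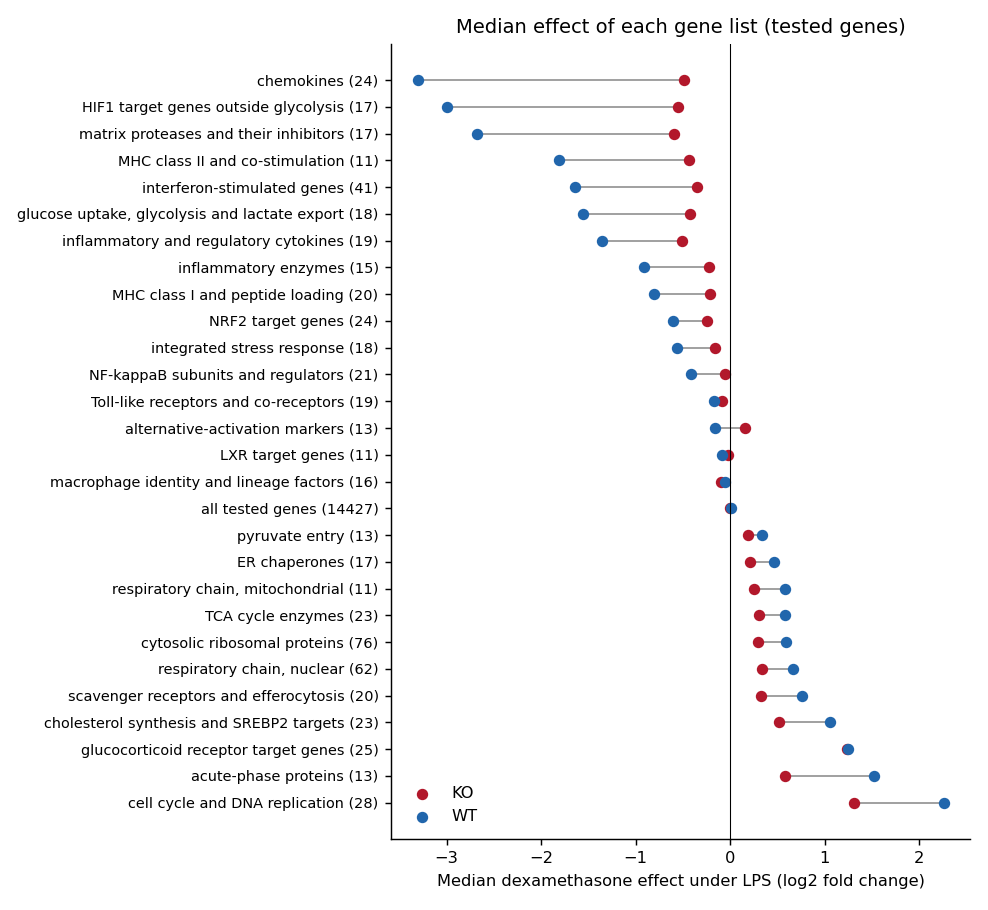
Median log2 effect of dexamethasone under LPS (horizontal axis) for each gene list other than the markers of other cell types (vertical axis, number of tested genes in parentheses), in KO (red) and WT (blue). In lists with a WT median under -0.5 the KO medians lie between -0.60 and -0.16, while WT medians run to -3.31, and the medians of glucocorticoid receptor targets, 1.23 in KO and 1.25 in WT, nearly coincide although their median difference gene by gene was -0.56.

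Effects in the held class were small. Of its 1927 genes, 1918 had at least 5 CPM, and among these the mean of the KO and WT effects reached 0.79 at most and the median WT effect had a size of 0.21. The respiratory chain gene Ndufb4 was raised by 0.62 ± 0.07 in KO and 0.84 ± 0.07 in WT (difference -0.22 ± 0.10, edgeR adjusted p = 0.0650), but the difference was called with RLE size factors, with no normalization and with DESeq2. Pdgfrb, a growth factor receptor gene, was raised by 0.67 ± 0.10 in KO and 0.79 ± 0.10 in WT (difference -0.12 ± 0.14, edgeR adjusted p = 0.523). Ttll1, which modifies tubulin, was lowered by -0.45 ± 0.08 in KO and -0.62 ± 0.08 in WT (difference 0.18 ± 0.11, edgeR adjusted p = 0.206). The other 9 genes had under 5 CPM and few counts, which makes their intervals unreliable.

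Larger effects in KO were rare, and small in the better measured genes. Of the 21 genes 6 had a difference of 2-fold or more, up to 2.66 in size on the log2 scale, all of them under 5 CPM, and 11 had at least 5 CPM, with differences of 0.14 to 0.53 in size and no called effect in WT, and for 6 of the 11 KO and WT already differed with LPS alone, as did 1468 of all genes tested (10.2%). The level in KO with both agents lay between KO with LPS and WT with both in 5 of the 11. Mt1, a metallothionein gene that glucocorticoids and zinc induce (chromosome 8 from 94905710 to 94906955, plus strand), measured 244.9, 259.6, 252.9 and 251.7 CPM in KO with both agents, against 201.9, 213.6, 202.2 and 185.2 CPM in KO with LPS. Its WT levels were 392.3, 404.8, 359.5 and 379.0 CPM with both, against 418.6, 379.7, 467.9 and 361.7 CPM with LPS. The KO groups did not overlap and the WT groups did, and the effects were 0.33 ± 0.05 in KO and -0.08 ± 0.05 in WT, a difference of 0.41 ± 0.07 (edgeR, adjusted p = 1.46e-06). Mt1 was no longer in this class when WT library 2 or WT library 4 with LPS was left out. Txnip, an inhibitor of glucose uptake (chromosome 3 from 96465273 to 96469199, plus strand), measured 98.6, 109.0, 117.5 and 111.0 CPM in KO with both agents, against 140.9, 128.5, 146.3 and 120.2 CPM in KO with LPS. WT cells had 88.9, 85.5, 87.7 and 80.8 CPM with both, against 94.7, 82.8, 94.1 and 81.7 CPM with LPS. Again the groups overlapped in WT and not in KO, with effects of -0.30 ± 0.06 in KO and -0.04 ± 0.06 in WT (difference -0.25 ± 0.08, edgeR adjusted p = 0.00773). KO and WT already differed with LPS alone in Mt1, by -1.02 ± 0.05, and in Txnip, by 0.60 ± 0.06, across lanes. For either gene the mean in KO with both agents lay between KO with LPS and WT with both.

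A single expressed gene turned. Of the 4 in this class 3 had few counts, and the fourth was Clec4a2, which encodes an inhibitory C-type lectin receptor (chromosome 6 from 123083387 to 123120958, plus strand). It measured 51.4, 53.0, 51.2 and 49.95 CPM in KO with both agents, against 63.8, 57.6, 62.2 and 61.8 CPM in KO with LPS. The WT libraries gave 65.1, 60.9, 69.0 and 59.0 CPM with both, against 61.1, 51.04, 55.4 and 59.6 CPM with LPS. The KO groups did not overlap, while the WT groups did. Dexamethasone lowered it in KO by -0.25 ± 0.05 (edgeR, adjusted p = 0.000131) and raised it in WT by 0.16 ± 0.05 (edgeR, adjusted p = 0.0082), a difference of -0.41 ± 0.08 (edgeR, adjusted p = 1.13e-05). It was no longer in this class when WT library 2 with LPS or WT library 3 with both agents was left out. Its promoter is shown as that of the expressed gene that turned, from RefSeq on GRCm38.p6 (chr6:123122440-123122739, plus strand, 5′ to 3′), with an AP-1 motif in capitals at bases 282 to 288, downstream of the start; it held no half-site.
Clec4a2: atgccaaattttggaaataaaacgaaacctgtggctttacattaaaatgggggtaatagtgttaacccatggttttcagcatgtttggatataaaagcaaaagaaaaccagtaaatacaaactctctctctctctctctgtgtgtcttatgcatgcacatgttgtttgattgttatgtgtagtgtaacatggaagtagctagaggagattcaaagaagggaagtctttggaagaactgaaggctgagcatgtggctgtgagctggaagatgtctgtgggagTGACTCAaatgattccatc

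A few strongly regulated genes lay away from the common position. Of 283 genes with at least 30 CPM at an end and a WT effect of 4-fold or more, 278 (98.2%) lay between 25% and 50%. Below that range lay 1 gene and above it 4. The genes farthest out among these 283 are described, chosen by their values, and most of those described lie within or near that range. Fgl2, a secreted and membrane-bound immune regulator, stood at 87.1% ± 14.2 (SD, n = 4 libraries). It measured 42.7, 39.7, 46.7 and 48.1 CPM in KO with both agents, against 20.7, 19.1, 20.5 and 23.3 CPM in KO with LPS. Levels in WT were 48.8, 47.1, 52.5 and 42.8 CPM with both, against 12.3, 13.2, 7.70 and 12.3 CPM with LPS. The groups with both agents overlapped between genotypes, while the KO libraries with LPS lay above the WT ones, and the difference of effects was -0.99 ± 0.12 (edgeR, adjusted p = 3.11e-09). The serine protease gene Htra1 stood at 54.9% ± 6.47, the transcriptional repressor gene Gfi1 at 52.9% ± 8.71 and Dnah12 at 50.1% ± 6.51. The pentraxin gene Ptx3 stood at 48.9% ± 6.25 and Cd93 at 47.1% ± 7.54. Single libraries came near the common position, down to 36.6% for Cd93, 40.6% for Gfi1 and 41.1% for Ptx3. Dnah12 averaged 0.065 CPM in KO with LPS, and its difference of effects was not called (edgeR, adjusted p = 0.168).

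At the low end stood genes of lipid synthesis and 3 others. Scd1, the stearoyl-CoA desaturase, measured 85.9, 90.6, 87.3 and 86.9 CPM in KO with both agents, against 41.1, 55.4, 41.6 and 49.5 CPM in KO with LPS. In WT it measured 206.8, 229.7, 224.0 and 219.2 CPM with both, against 42.6, 53.4, 37.8 and 57.4 CPM with LPS. The groups with LPS overlapped between genotypes, and those with both agents did not. Its position was 23.6% ± 1.17 and its difference -1.30 ± 0.12 (edgeR, adjusted p = 4.07e-13). Spn stood at 25.2% ± 2.21, the endothelin gene Edn1 at 25.8% ± 3.25 and Ms4a14 at 29.2% ± 3.26. Acat2, of early sterol synthesis, stood at 29.8% ± 2.82 and the fatty acid synthase gene Fasn at 30.2% ± 4.43, with a single library at 36.9%. Of these 12 genes, 8 also differed between KO and WT with LPS alone, Fgl2 by 0.88 ± 0.10 and Cd93 by 0.65 ± 0.07 among them. Over all genes tested 1468 did (10.2%). The KO level with LPS is an end of the position, so choosing genes by position can favour such a gap. The KO and WT libraries also lay in different lanes.

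Without LPS no genotype difference was called. No gene of 14427 had a called difference of the dexamethasone effect (0%), against 45.4% with LPS, with 617 genes at an unadjusted p under 0.05 and 0 called by DESeq2. With LPS each genotype was in a lane of its own, while without LPS nearly all libraries shared lane 3. A lane term cancels from the difference with LPS, so the part of this layout in the contrast was not tested. Over 9893 genes with at least 5 CPM in a group with LPS the SD of the difference was 0.76 with LPS and 0.24 without. The test of the difference with against without LPS called 4721 genes (32.7%), 2460 higher and 2261 lower. Fkbp5 averaged 836.4 CPM in KO with dexamethasone alone and 25.9 CPM in KO control, against 877.9 CPM in WT with dexamethasone alone and 29.9 CPM in WT control. Its difference without LPS was 0.15 ± 0.09 (edgeR, adjusted p = 1), and the difference with LPS minus that without was -1.36 ± 0.14 (edgeR, adjusted p = 3.87e-11). Mmp12 averaged 22.8 CPM in KO with dexamethasone alone and 95.3 CPM in KO control, against 19.2 CPM in WT with dexamethasone alone and 93.4 CPM in WT control, and the difference with LPS minus that without was 8.51 ± 0.30 (edgeR, adjusted p = 3.96e-28). For Slc2a1 it was 2.70 ± 0.11, for Rpl3 -1.003 ± 0.07, for Idh3a -0.94 ± 0.11 and for Glul -0.80 ± 0.07. Il1b and Nos2 averaged under 1 CPM without LPS, so the comparison could not be made with any precision for them (edgeR, adjusted p = 0.248 and 0.747).

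**Figure D5:**
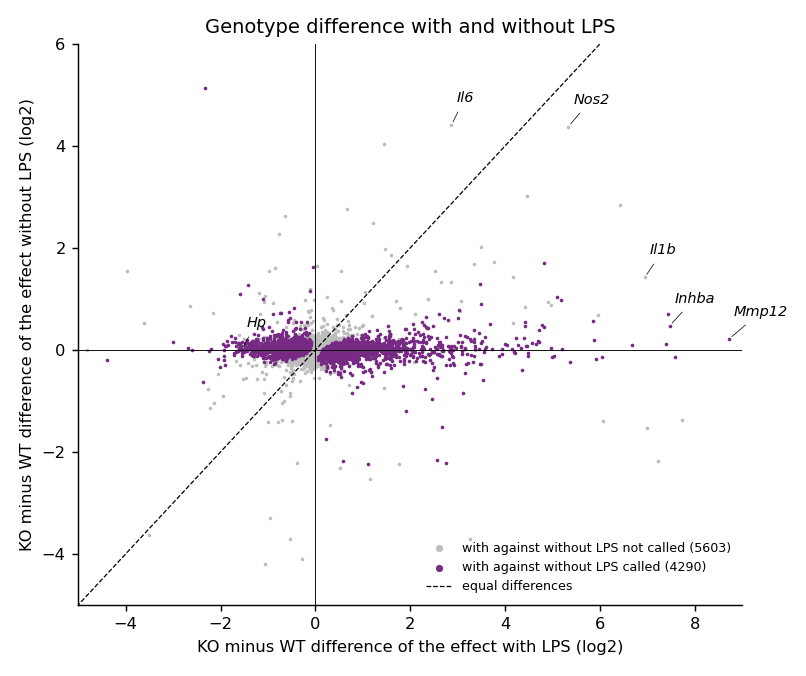
KO minus WT difference of the dexamethasone effect without LPS (vertical axis, log2) against that with LPS (horizontal axis, log2), 1 point per gene with at least 5 CPM in a group with LPS; purple marks genes whose 2 differences themselves differed (4290), and 3 genes lie outside the axes. The points spread widely along the horizontal axis and lie close to 0 on the vertical one.

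Levels showed the same contrast between the genotypes. With dexamethasone and LPS together 8137 genes differed between KO and WT (56.4%), against 1468 with LPS alone (10.2%), and both counts compare libraries of different lanes.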

How the data were processed

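Messenger RNA was sequenced in 32 libraries, 4 in each of 8 groups, assigned by label. The authors deposited unnormalized counts, 1 per gene and library, of assigned read pairs. featureCounts 2.0.0 was used, per the file headers, with exons summed by gene identifier, pairs counted as 1 and strand ignored, on the GENCODE vM32 annotation, so a gene and an antisense or overlapping partner cannot be told apart. The submitters' processing notes name STAR without a version, GRCm38 and mm10, whereas vM32 belongs to a later build, so gene positions are those of the deposited table. Of 56953 identifiers 4924 had no symbol match (0.846% of counts).

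Counts were fitted in R 4.3.3 with edgeR 4.0.16: filterByExpr, TMM, 8 group means, no covariate. The spread was shared over all groups (biological coefficient of variation 4.36%). Each contrast had a two-sided quasi-likelihood F test. A call needed an adjusted p (Benjamini-Hochberg, all tested genes) under 0.05. SEs were derived from F. Totals of the 16 libraries with LPS ran from 18232013 to 24032980 counts, and genes with few counts carry wide errors. Replicate pairs differed by more than sampling noise (chi-square per degree of freedom 2.02 to 5.73, and 16.7 to 17.4 in the 3 pairs with WT library 3 with LPS), so none was counted as a duplicate.

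Named were Acod1, Nr3c1, Il1b, Il6, Nos2, Tnf, Il10 and Il12b, up to 4 genes per list with the smallest adjusted p, and the 5 largest protein-coding genes per class and direction with at least 5 CPM and more than 3 counts in each group; genes with fewer counts were named apart. Fkbp5 and the genes described by their position were chosen after their values were seen, and Zbtb16 was named outside these rules. The comparison, the lists and the rules were chosen with earlier results of these data known. Alternative settings were no normalization, RLE size factors, no filter, DESeq2 1.42.0, an adjusted p under 0.01, the 4 groups with LPS alone, a replicate block, a lane term and leaving out each library. Other settings of the position were added after the data had been seen. Promoters and motif shares came from RefSeq sequences on GRCm38.p6, which 10179 of the 14427 tested genes matched by symbol.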

Additional observations from a re-analysis of the deposited data

Results flagged for a closer look

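The dexamethasone effect under LPS differed between KO and WT in 6552 genes, and the difference itself differed with against without LPS in 4721, both by edgeR at a Benjamini-Hochberg adjusted p under 0.05. Clec4a2 went opposite ways in the 2 genotypes, with a difference of -0.41.

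Among the genes printed by library, a library stood apart from the other 3 of its group in 5 of 100 groups of 4, by Dixon's ratio of its gap to the range at the 95% critical value, and chance gives about 1 in 20. Ccl2 was lowest in WT library 3 with both agents, at 5.671 CPM. H2-Ab1 was highest in WT library 3 with LPS, at 463.7 CPM, and Fgl2 was lowest there, at 7.7 CPM. Mertk was highest in KO library 2 with LPS, at 8.41 CPM, and Dhcr7 in WT library 1 with both agents, at 55.49 CPM.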

How the results depend on the processing

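The count of genes with a called difference (6552) lay between 5143, at an adjusted p under 0.01, and 6706, with no normalization, and between 6232 and 6573 when 1 library was left out. No gene called at first changed the sign of its difference in any of these fits, but not all of them could change it. The lower p threshold reuses the same differences. The lane term cancels from them, as lane and genotype go together with LPS. The replicate block, balanced over the groups, can change them little. Leaving out 1 library gave 6157 to 6498 smaller effects, 16 to 29 larger, 1 to 7 turned, 1780 to 2095 held, 4862 to 5786 called in KO, 9698 to 10032 called in WT, 4466 to 4789 genes that differed with against without LPS, and a median position of 35.6% to 38.2%. The number of larger effects, 21, became 34 with RLE size factors, 34 with DESeq2 and 4 at an adjusted p under 0.01. The number of turned genes, 4, became 12 with RLE size factors, 9 with no normalization, 1 with no filter, 11 with DESeq2 and 1 at an adjusted p under 0.01. It became 2 without WT library 1 or 3 with both agents, 7 without KO library 1 with LPS, 2 without KO library 3 with LPS and 1 without KO library 4 with both agents. The stricter p calls fewer genes by construction, and for the other settings the cause was not tested. With the interval of held effects inside 0.25 the number held was 791, against 1927 inside 0.5, by construction. The share of called differences with the KO effect above the WT effect was 52.6%, and 43.3% to 54% in the other fits, whose scaling moved the median difference of all genes by -0.067 at most. No pairing of the samples by replicate number was seen, as deviations of same-numbered libraries correlated between -0.029 and 0.04 over 24 pairs. That check weighs all genes alike and cannot exclude a pairing held by few genes, and 7 of 16 libraries were closest to their own number. With a replicate block 6575 genes were called, 3447 above and 3128 below. Of 155 single genes, 142 were called at first, and most were named for a small adjusted p or a large difference. Under 8 alternatives, 1214 of 1240 comparisons stayed on the same side of the threshold, 22 lost the call and 4 gained it. That choice of genes favours staying, so the share does not carry over to all genes. Without LPS the test called 6 genes with no filter and 1 without WT library 3 with LPS.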
